A study of Homo sapiens with 12 samples.

Results

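Aminoacyl-tRNA synthetases are the enzymes that join each amino acid to its transfer RNA. The messenger RNAs of 35 of them, 19 for cytosolic and 16 for mitochondrial enzymes, were taken by gene symbol from a table of 20308 genes measured in C4-2 cells. The aspartyl enzymes are not in the set and are not described. C4-2 is a castration-resistant human prostate cancer cell line derived from LNCaP, and it was the only line used. Cells carried an empty vector (NC) or were made to overexpress ALKBH5 (oeALKBH5), an enzyme that removes the methyl mark m6A from RNA, and no other treatment or allele is named. The values are from the input libraries, which is total RNA freed of ribosomal RNA and not immunoprecipitated, with 3 libraries per group. Whether the replicates came from separate cultures, and whether the overexpressing cells were a clone or a pool, is not in the labels, so each p-value reflects library-to-library spread, which may be technical. Whether m6A peaks lie on the members was not analysed here.

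Charging takes place at the enzyme's active site, with ATP, and the charged tRNA is then carried to the ribosome by an elongation factor. The enzymes fall into class I and class II by the fold of the catalytic domain. Most amino acids have a cytosolic enzyme and a separate, nucleus-encoded enzyme for mitochondrial protein synthesis, whose symbol ends in 2. GARS1 and KARS1, for glycine and lysine, serve both compartments, and FARSA and FARSB are the subunits of the cytosolic phenylalanyl enzyme. Several cytosolic enzymes sit in a multi-enzyme complex with the scaffold proteins AIMP1, AIMP2 and EEF1E1. Many synthetase genes are known targets of ATF4, the transcription factor of the amino acid response.

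ALKBH5 itself was listed at 64.9, 61.1 and 58.2 FPKM (fragments scaled to transcript length and library size) in NC and at 80.3, 74.3 and 72.5 FPKM in oeALKBH5. The groups did not overlap, but the difference of 0.30 on the log2(FPKM + 1) scale did not pass the test over all genes (limma adjusted p = 0.114). The sum of all FPKM values ran from 511333 to 524905 per library, and read totals were not used, so the depth is unknown. All 10 luminal prostate markers were tested, with KLK3 between 893 and 1020 FPKM. Their summed level was 2358 to 2392 FPKM in NC and 2366 to 2593 FPKM in oeALKBH5, and 1 of the 10, KRT8, was called higher (0.70, limma adjusted p = 0.00242). The summed level of 5 immune markers was 0.521 to 2.80 FPKM in NC and 3.49 to 7.85 FPKM in oeALKBH5, with PTPRC at most 0.456 FPKM in any library. CD3D lay wholly above NC (0.524, 0 and 0.527 FPKM against 1.27, 1.70 and 2.53 FPKM) and did not pass (limma adjusted p = 0.111). With overlapping groups, LYZ averaged 0.132 FPKM in NC and 2.32 FPKM in oeALKBH5, and CD3E 1.14 and 0.691 FPKM. CD14 reached 0.299 FPKM. The 5 fibroblast markers summed to 3.86 to 12.6 FPKM in NC and 2.17 to 27.7 FPKM in oeALKBH5, nearly all of it COL1A1, with DCN and LUM listed at 0 in every library. The 3 basal markers summed to at most 6.14 FPKM and the endothelial marker CDH5 reached 0.0802 FPKM. The part of these differences in the results below was not tested.

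The cytosolic messages were abundant. FPKM is scaled to transcript length, so levels can be set side by side across genes. All 19 cytosolic members lay above 14.5 FPKM, the median level of the 12757 genes tested, and so did 10 of the 16 mitochondrial members. In NC the cytosolic means ran from 45.4 ± 6.82 FPKM (SD, n = 3) for CARS1, the cysteinyl enzyme, to 177 ± 10.9 FPKM for IARS1, the isoleucyl enzyme, with a median of 101.6 FPKM. The mitochondrial means ran from 5.48 ± 0.435 FPKM for PARS2, the prolyl enzyme, to 67.5 ± 2.82 FPKM for IARS2, with a median of 17.8 FPKM. Even the lowest cytosolic member was above 82.8% of the genes tested.

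**Figure D1:**
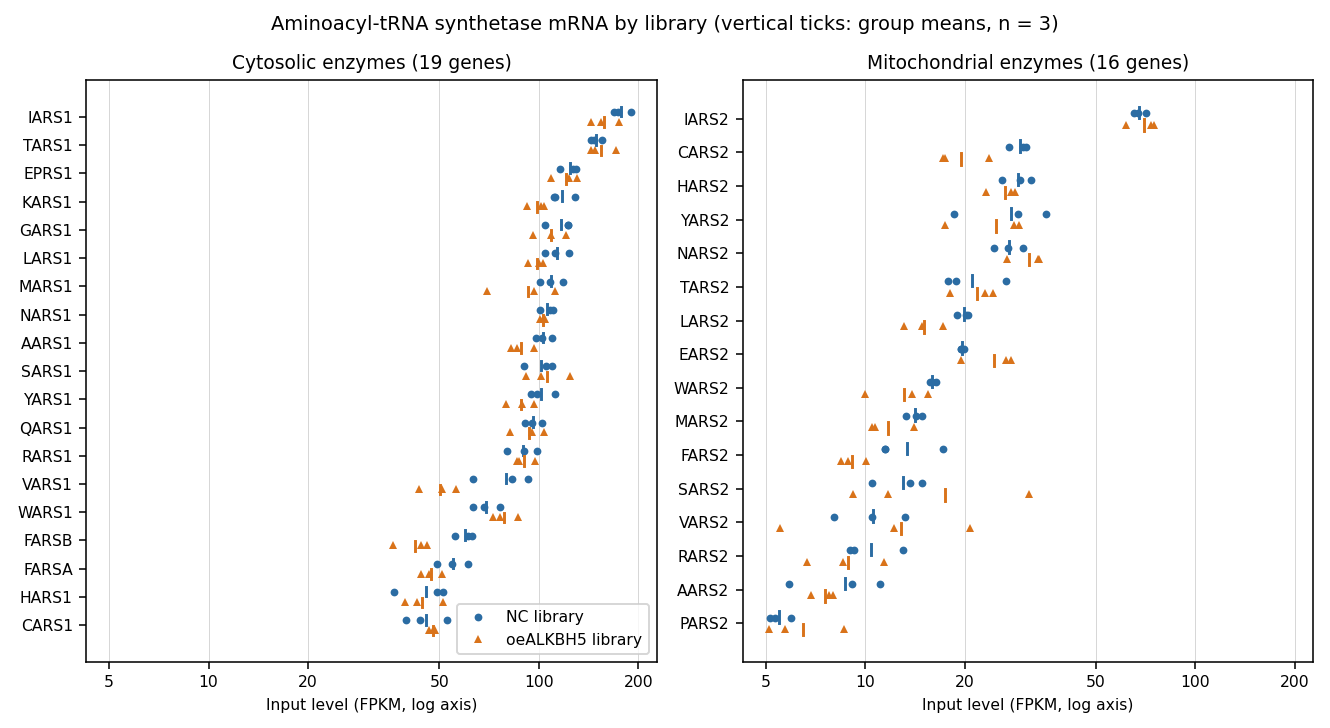
Level of each synthetase message in each input library, in FPKM on a log axis, with NC libraries as circles, oeALKBH5 libraries as triangles and group means (n = 3) as vertical ticks. Cytosolic NC means sit between 45.4 and 177 FPKM and mitochondrial NC means between 5.48 and 67.5 FPKM, and 1 oeALKBH5 library stands out at 31.3 FPKM for SARS2.

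Between the groups, 1 of 35 members passed the test, VARS1, which fell. None was called higher and 34 did not pass. A gene was called where limma on log2(FPKM + 1) gave a Benjamini-Hochberg adjusted p under 0.05 over all 12757 tested genes, of which 5.45% were called, 2.43% lower and 3.02% higher, and differences are oeALKBH5 minus NC. The members' share of calls is therefore close to that of all genes. The median difference of the 35 was -0.13, against 0.018 for all tested genes, and 23 of 35 members (65.7%) had a negative difference, against 47.7% of all genes. In 9 members (25.7%) every oeALKBH5 library lay below every NC library, which held for 13.0% of all tested genes. In none did oeALKBH5 lie wholly above NC, which held for 15.1% of all genes. The members were measured more tightly than all tested genes (median SE 0.142 against 0.209), so these shares do not compare like with like. In RNA from a whole culture, fewer cells with a transcript and less of it per cell cannot be told apart.

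VARS1 (ENSG00000204394), the valyl enzyme, which in cells associates with the elongation factor EEF1 complex, was at 63.4, 92.4 and 82.9 FPKM in NC and at 56.0, 43.4 and 50.9 FPKM in oeALKBH5. All 3 oeALKBH5 libraries lay below the lowest NC library, although NC replicate 1 came close to the highest of them. The fall was 0.65 (difference -0.65, SE 0.16, limma adjusted p = 0.0491), or 1.59-fold in mean level. The call lies close to the threshold: of the 6 fits that leave out 1 library, only that without NC replicate 1 kept it (limma adjusted p = 0.0299), and without NC replicate 2, NC replicate 3 and oeALKBH5 replicates 1, 2 and 3 limma gave adjusted p = 0.139, 0.164, 0.0685, 0.127 and 0.115. An exact permutation test of 3 against 3 libraries cannot go below 0.1, the value it gave for VARS1.

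The subunits of the phenylalanyl enzyme were at similar levels in NC. FARSB (ENSG00000116120), the beta subunit, was at 55.7, 62.6 and 61.0 FPKM in NC and at 44.0, 45.9 and 36.3 FPKM in oeALKBH5. The groups did not overlap, and the difference of -0.50 (SE 0.12, 95% interval -0.78 to -0.22) missed the threshold narrowly (limma adjusted p = 0.0510). FARSA, the alpha subunit with the active site, had overlapping groups, 49.3, 60.9 and 54.6 FPKM in NC and 46.4, 44.1 and 51.1 FPKM in oeALKBH5, with a difference of -0.21 (limma adjusted p = 0.331). The ratio of FARSB to FARSA was 1.09 ± 0.0565 in NC and 0.901 ± 0.172 in oeALKBH5 (SD, n = 3). In oeALKBH5 replicates 1 to 3 it was 0.950, 1.04 and 0.710, so that replicate 2 lay within the NC range of 1.03 to 1.13.

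Of the other cytosolic members, 3 had groups that did not overlap, with smaller differences. KARS1, the lysyl enzyme, was at 111.1, 112.1 and 128.7 FPKM in NC and at 103.4, 101.7 and 91.9 FPKM in oeALKBH5 (-0.24, limma adjusted p = 0.180). AARS1, the alanyl enzyme, was at 109.6, 101.9 and 98.1 FPKM in NC and at 85.7, 82.3 and 97.0 FPKM in oeALKBH5 (-0.22, limma adjusted p = 0.218). LARS1, the leucyl enzyme, whose protein also takes part in leucine sensing upstream of mTORC1, was at 112.1, 123.5 and 104.5 FPKM in NC and at 99.95, 92.8 and 103.2 FPKM in oeALKBH5 (-0.20, limma adjusted p = 0.263). In AARS1 and LARS1 the highest oeALKBH5 library lay just under the lowest NC library.

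The other 14 cytosolic members had overlapping groups. They are CARS1, EPRS1, FARSA, GARS1, HARS1, IARS1, MARS1, NARS1, QARS1, RARS1, SARS1, TARS1, WARS1 and YARS1. Their differences ran from -0.26 for MARS1, the methionyl enzyme, to 0.18 for WARS1, the tryptophanyl enzyme, and limma adjusted p from 0.316 for YARS1 to 0.971 for RARS1. The spread between libraries limits what could be seen: the 95% interval lay within 0.5 of 0 on the log2 scale in 16 of 19 cytosolic members and within 1 of 0 in 18. NARS1, the asparaginyl enzyme, was the most tightly measured (-0.05, 95% interval -0.23 to 0.14). VARS1 was the cytosolic member whose interval passed 1.

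Summed over the 19 cytosolic genes, the level was 1814, 1917 and 1844 FPKM in NC and 1684, 1646 and 1801 FPKM in oeALKBH5. The means, 1858 ± 53.1 and 1710 ± 80.7 FPKM (SD, n = 3), differ by -7.97%, and the highest oeALKBH5 library lay just below the lowest NC library. The 16 mitochondrial genes summed to 333 ± 23.9 FPKM in NC and 321 ± 12.7 FPKM in oeALKBH5, with overlapping groups. The cytosolic sum was 5.59 ± 0.293 times the mitochondrial sum in NC and 5.34 ± 0.462 times in oeALKBH5, also with overlapping groups.

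None of the 16 mitochondrial members passed the test in either direction. Their median difference was -0.13, and 9 of 16 were negative, while the cytosolic median was -0.10, with 14 of 19 negative. Leaving out NC replicate 2 turned the mitochondrial median to 0.035, and leaving out NC replicate 1 took it to -0.23. They were measured less precisely than the cytosolic members: the median SE was 0.191 against 0.108, and the 95% interval lay within 0.5 of 0 in 3 of 16 and within 1 of 0 in 14 of 16.

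CARS2 (ENSG00000134905), the mitochondrial cysteinyl enzyme, was at 30.7, 30.0 and 27.3 FPKM in NC and at 23.7, 17.3 and 17.5 FPKM in oeALKBH5. The groups stood apart, yet the difference of -0.58 (SE 0.16, 95% interval -0.94 to -0.22) did not pass (limma adjusted p = 0.0746), except without oeALKBH5 replicate 1 (limma adjusted p = 0.0452). LARS2, the leucyl enzyme, was at 18.9, 20.2 and 20.5 FPKM in NC and at 17.1, 13.1 and 14.8 FPKM in oeALKBH5 (-0.39, limma adjusted p = 0.189). FARS2, the phenylalanyl enzyme, a single chain in mitochondria, was at 11.5, 11.5 and 17.3 FPKM in NC and at 8.45, 8.89 and 10.1 FPKM in oeALKBH5 (-0.49, limma adjusted p = 0.215). WARS2, the tryptophanyl enzyme, was at 15.9, 16.4 and 15.7 FPKM in NC and at 9.95, 15.5 and 13.8 FPKM in oeALKBH5 (-0.29, limma adjusted p = 0.411). In WARS2 oeALKBH5 replicate 2 came close to the lowest NC library.

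The other 12 mitochondrial members, AARS2, EARS2, HARS2, IARS2, MARS2, NARS2, PARS2, RARS2, SARS2, TARS2, VARS2 and YARS2, had overlapping groups. Their differences ran from -0.26 for MARS2 to 0.29 for EARS2, the glutamyl enzyme, and limma adjusted p from 0.329 for EARS2 to 0.901 for VARS2. In SARS2, VARS2 and PARS2 a single library, oeALKBH5 replicate 2, was the highest. SARS2, the seryl enzyme, was at 31.3 FPKM there and between 9.22 and 14.9 FPKM in the other libraries. VARS2 was at 20.8 FPKM there, against 5.50 to 13.2 FPKM elsewhere, and PARS2 at 8.63 FPKM, against 5.11 to 5.97 FPKM. Without that library the differences turned from 0.22 to -0.28 for SARS2, from 0.12 to -0.30 for VARS2 and from 0.18 to -0.013 for PARS2.

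**Figure D2:**
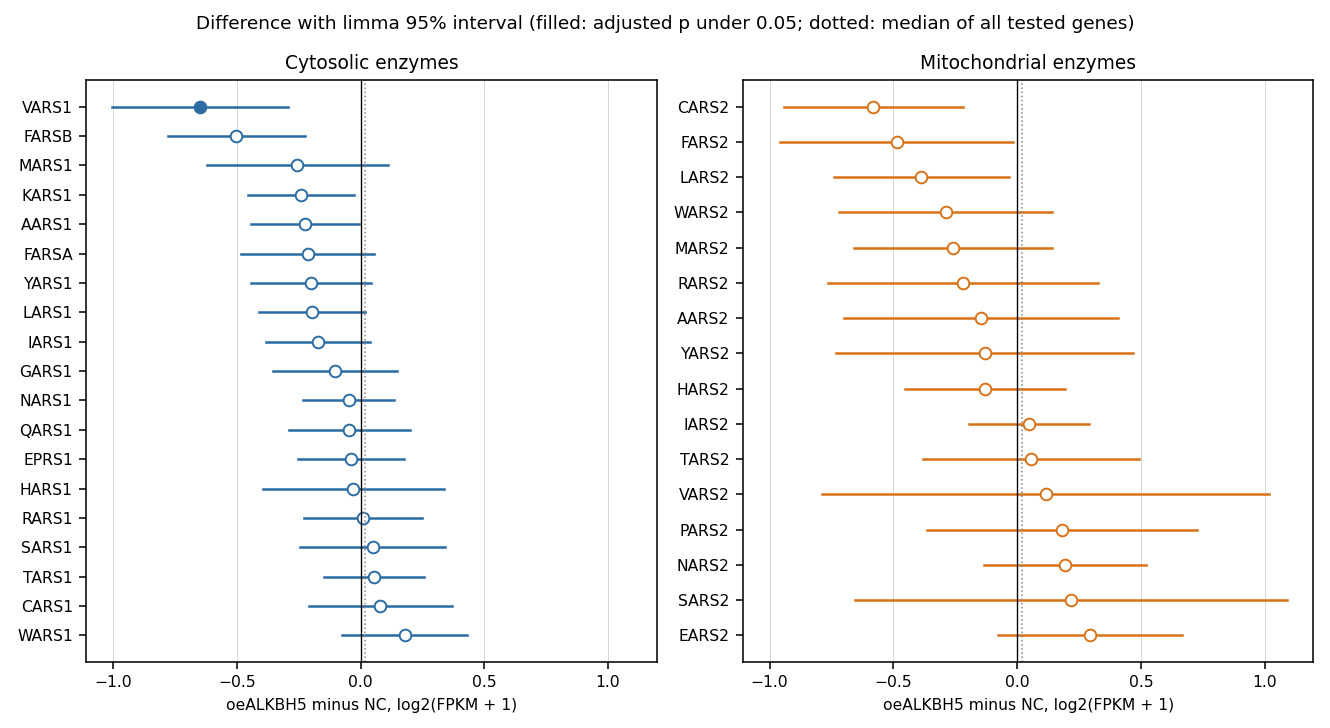
Difference between oeALKBH5 and NC for each member on the log2(FPKM + 1) scale, with limma 95% intervals as lines, a filled point where the adjusted p was under 0.05 and a dotted line at the median of all tested genes, 0.018. VARS1 is the only filled point, at -0.65, and the mitochondrial intervals are wider, most of all in SARS2 and VARS2.

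Within the cytosolic set, the 7 members of the multi-enzyme complex, EPRS1, IARS1, KARS1, LARS1, MARS1, QARS1 and RARS1, had a median difference of -0.17, and none was called. The other 12 had a median of -0.08, and 1, VARS1, was called lower. EPRS1, the fused glutamyl and prolyl enzyme, differed by -0.04 and RARS1, the arginyl enzyme, by 0.01. By fold, the 18 class I members had a median of -0.18 with 1 called lower, and the 16 class II members a median of -0.08 with none called, EPRS1 holding a domain of each. No difference between these groups of genes was tested.

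For 14 amino acids the set holds both a cytosolic and a mitochondrial gene, which gives 15 pairs, since FARS2 is paired with each subunit of the cytosolic phenylalanyl enzyme. The cytosolic message was the higher of the pair in NC in all 15, by 1.55-fold for cysteine to 11.9-fold for alanine, with a median of 4.46-fold. Both differences were negative in 7 pairs, both positive in 2, and opposite in sign in 6, of which 3 were negative in the cytosolic and 3 in the mitochondrial gene. The largest gap was that of valine, with VARS1 at -0.65 and VARS2 at 0.12, where the 2 groups of libraries overlapped for the within-library gap (exact permutation p = 0.3, two-sided). That gap of -0.76 shrank to -0.25 without oeALKBH5 replicate 2, where the gap of tryptophan was the largest (0.61), and widened to -1.24 without oeALKBH5 replicate 3. The gap between CARS1, at 0.08, and CARS2, at -0.58, did not overlap between the groups, and neither did that between WARS1, at 0.18, and WARS2, at -0.29. Each of these gave an exact two-sided permutation p = 0.1, the smallest possible with 3 against 3 libraries, and across 15 pairs no pair could pass.

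The histidyl genes HARS1 and HARS2 start head to head. Their RefSeq promoter windows, 250 bases before to 50 after each start, share 184 bases at chr5:140691321-140691504 (GRCh38.p14) on opposite strands. Mean HARS1 levels in NC and oeALKBH5 were 45.6 ± 8.08 and 44.4 ± 6.10 FPKM, and those of HARS2 were 29.1 ± 2.96 and 26.5 ± 2.86 FPKM (SD, n = 3), so both pairs of groups differed by less than the spread between replicates.

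**Figure D3:**
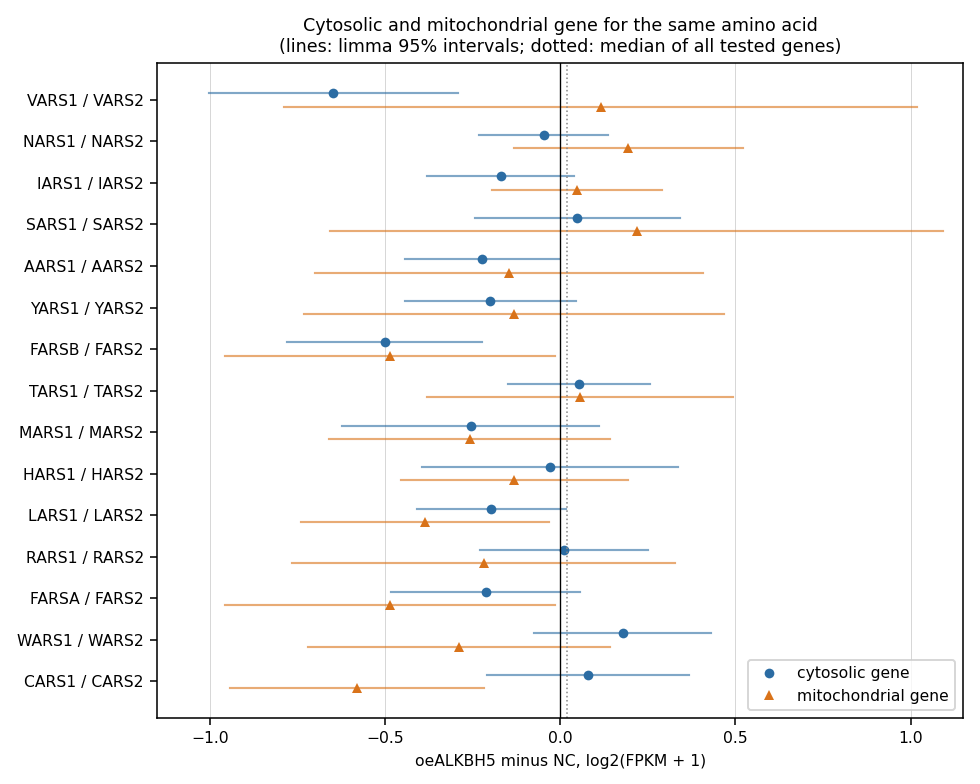
Cytosolic (circles) and mitochondrial (triangles) gene for the same amino acid, each as oeALKBH5 minus NC on the log2(FPKM + 1) scale, with limma 95% intervals as lines and a dotted line at the median of all tested genes. The pairs are ordered by the gap between the points, from valine, where the cytosolic gene is lower by 0.76, to cysteine, where it is higher by 0.66, and the intervals of most pairs overlap.

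By RefSeq gene models of GRCh38, 5 members overlap another gene of the table, 6 genes in all. The libraries were directional, but whether strand was used in the quantification is not given in the sources used here. MARS1 overlaps DDIT3, which encodes a stress transcription factor and was called higher (51.0, 53.6 and 69.8 FPKM against 21.9, 31.5 and 21.9 FPKM, 1.19, limma adjusted p = 0.00877), while MARS1 differed by -0.26. MARS1 also overlaps ARHGAP9, which was above 0 in 1 library only. EARS2 overlaps GGA2, which reached 56.3 FPKM in oeALKBH5 replicate 2 against 25.4 to 32.8 FPKM elsewhere. FARS2 overlaps LYRM4, YARS1 overlaps S100PBP, and CARS2 overlaps ING1, at 3.06 to 6.87 FPKM, and none of these 3 was called. The part of shared reads in the values was not tested.

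The partners of the synthetases were read from lists of 40 genes in all, of which 2 were called lower, 1 higher and 37 neither, with a median difference of -0.19. The share called, 7.5%, is near the 5.45% of all tested genes, whose median was 0.018. These lists were chosen with earlier results of these data known, so their shares and medians are descriptions only. Among the 3 scaffolds of the complex, AIMP2 fell, from 53.4, 60.7 and 57.9 FPKM to 43.5, 32.3 and 41.0 FPKM (-0.56, SE 0.13, limma adjusted p = 0.0491). All 3 oeALKBH5 libraries lay well under NC, but AIMP2 was called in none of the fits that leave out 1 library, with limma adjusted p from 0.0588 without oeALKBH5 replicate 1 to 0.154 without NC replicate 3. The call was also lost with a pseudocount of 0.1 (limma adjusted p = 0.0515), no filter on low values (0.0883), quantile normalization (0.0599) and no trend (0.118). EEF1E1 was also without overlap, at 58.2, 48.9 and 58.1 FPKM against 42.2, 39.2 and 45.9 FPKM (-0.37, limma adjusted p = 0.116), and AIMP1 overlapped (-0.17, limma adjusted p = 0.729).

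Of 21 genes of tRNA maturation and export, 1 fell and none was called higher. The share called, 4.76%, is near the 5.45% of all tested genes. The median was -0.25, against 0.018 for all tested genes, and 16 were negative (76.2%, against 47.7%). In 5 genes (23.8%) oeALKBH5 lay wholly below NC and in 2 wholly above, against 13.0% and 15.1% of all tested genes. The gene that fell was SSB, the La protein, which binds the 3′ ends of new RNA polymerase III transcripts, among them tRNA precursors. It was at 126.8, 126.2 and 121.5 FPKM in NC and at 84.0, 96.5 and 81.2 FPKM in oeALKBH5, with NC tightly grouped and far above (-0.52, SE 0.09, limma adjusted p = 0.0165). SSB kept its call without oeALKBH5 replicate 2 (limma adjusted p = 0.0176) and lost it without any other single library, with limma adjusted p of 0.0572, 0.0599 and 0.0660 without NC replicates 1, 2 and 3 and 0.0529 and 0.0622 without oeALKBH5 replicates 1 and 3. The largest difference of the 21 was that of RPP21, at -1.22 with oeALKBH5 wholly below NC, which did not pass (limma adjusted p = 0.0590). XPOT, ELAC2 and RPP30 also lay wholly below NC and did not pass (-0.28, -0.29 and -0.35, limma adjusted p = 0.120, 0.137 and 0.265). POP4 and CLP1 lay wholly above NC and did not pass either (0.49 and 0.46, limma adjusted p = 0.0712 and 0.155).

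Of 7 factors that deliver charged tRNA to ribosomes, 1 was called (14.3%, against 5.45% of all tested genes), and 1 call does not describe so short a list. The gene called was EEF1A2, an isoform of the carrier eEF1A, which rose from 143.0, 135.4 and 140.1 FPKM to 197.5, 186.3 and 186.0 FPKM (0.44, SE 0.07, limma adjusted p = 0.0106). It lost its call without NC replicate 3 (limma adjusted p = 0.0529). The main isoform EEF1A1 was at 3258 ± 146 and 3016 ± 261 FPKM (SD, n = 3) and not called (-0.11, limma adjusted p = 0.333). Since these isoforms are closely similar in sequence, the split of reads between them is uncertain. None of the exchange factor subunits was called: EEF1B2 differed by -0.27 (limma adjusted p = 0.0722), EEF1D by -0.17 and EEF1G by 0.11.

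The remaining partners gave no calls in either direction. The 4 genes for glutaminyl-tRNA and formylmethionyl-tRNA in mitochondria were at 0.29 for GATB, -0.25 for QRSL1, -0.09 for GATC and 0.09 for MTFMT. The 3 proofreading genes were at -0.21 for AARSD1, -0.27 for DTD2 and 0.11 for DTD1. The 2 genes that make selenocysteinyl-tRNA were at 0.21 for SEPSECS and 0.08 for PSTK. Limma adjusted p of these 9 was at least 0.468.

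Of 26 genes of the amino acid response, the program in which ATF4 raises synthetases, amino acid carriers and biosynthetic enzymes, 3 rose, 1 fell and 22 did not pass, with a median of 0.11. The share called, 15.4%, stands beside 5.45% of all tested genes (3.02% higher and 2.43% lower), and the median beside 0.018. This list was chosen with earlier results of these data known, so its share and median are descriptions only and no test of the program. DDIT4, an inhibitor of mTORC1, rose from 88.8, 75.8 and 88.8 FPKM to 132.9, 150.6 and 143.4 FPKM (0.75, limma adjusted p = 0.00431). DDIT3 rose as given above, and STC2, a secreted glycoprotein, rose from 30.5, 25.7 and 36.6 FPKM to 46.7, 52.7 and 51.7 FPKM (0.70, limma adjusted p = 0.0307). PSPH, the last enzyme of serine synthesis, fell from 73.7, 62.1 and 75.9 FPKM to 26.7, 42.5 and 36.1 FPKM (-1.01, limma adjusted p = 0.0134). The groups of these 4 genes did not overlap. DDIT3 and DDIT4 stayed called whichever library was left out, PSPH lost its call without NC replicate 3 (limma adjusted p = 0.0704), and STC2 kept it only without NC replicate 3 (limma adjusted p = 0.0404), reaching 0.0819, 0.0830, 0.0588, 0.0865 and 0.0925 without NC replicates 1 and 2 and oeALKBH5 replicates 1, 2 and 3. ATF4 itself averaged 295 ± 8.14 FPKM in the NC libraries and 323 ± 27.5 FPKM in the oeALKBH5 libraries (SD, n = 3), a difference that did not pass (0.13, limma adjusted p = 0.350). ASNS, the asparagine synthetase, which makes the amino acid and charges no tRNA, differed by -0.17 (limma adjusted p = 0.320). Of the 26 genes, 4 lay wholly below NC and 6 wholly above, against 13.0% and 15.1% of all tested genes. Among those not called, PSAT1, PHGDH and SLC7A5 lay wholly below (-0.25, -0.25 and -0.59, limma adjusted p = 0.128, 0.0909 and 0.0527). CEBPB, SLC38A2 and SLC3A2 lay wholly above (0.59, 0.20 and 0.19, limma adjusted p = 0.0538, 0.151 and 0.206).

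**Figure D4:**
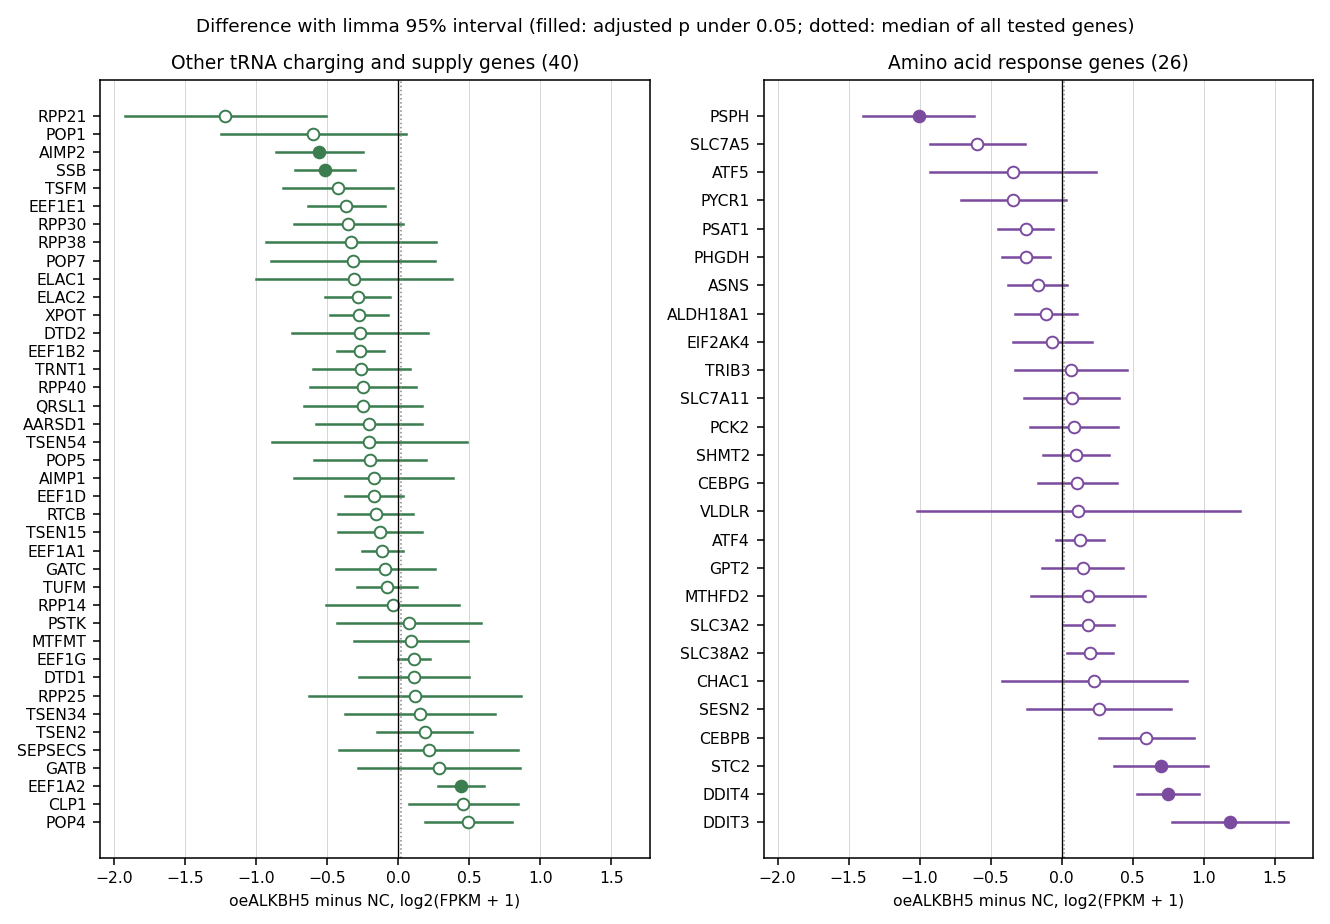
Difference between oeALKBH5 and NC on the log2(FPKM + 1) scale for 40 partner genes of tRNA charging (left) and 26 amino acid response genes (right), with limma 95% intervals as lines and filled points where the adjusted p was under 0.05. SSB, AIMP2 and EEF1A2 are filled on the left, and PSPH, STC2, DDIT4 and DDIT3 on the right, where the called genes lie on both sides of 0.

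The C/EBP-ATF response element that ATF4 binds has the core TGATGNAA. RefSeq promoter windows (GRCh38.p14) were matched for 30 of 35 members, with none for LARS1, VARS1, YARS1, AARS2 and VARS2. The core, searched on both strands, was in the windows of 7 of 16 cytosolic members (43.8%), AARS1, CARS1, GARS1, IARS1, MARS1, NARS1 and TARS1, and of 1 of 14 mitochondrial members, YARS2. Over all 27305 genes with a window, 4.46% held it. In 6 of the 7 cytosolic genes it read TGATGCAA or its complement TTGCATCA, which 1.08% of all genes held. The 4 holders with the highest NC level, chosen after the values were seen, are shown because they place the motif relative to the gene start, as 30 bases on the gene's strand with the match in capitals:
IARS1: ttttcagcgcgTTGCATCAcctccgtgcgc
TARS1: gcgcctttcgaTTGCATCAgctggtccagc
GARS1: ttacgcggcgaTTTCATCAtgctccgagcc
MARS1: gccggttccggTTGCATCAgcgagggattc

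They lie at chr9:92293692-92293721 on the minus strand for IARS1, and on the plus strand at chr5:33440956-33440985 for TARS1, chr7:30594834-30594863 for GARS1 and chr12:57488053-57488082 for MARS1. Counted from the annotated gene start, with no position 0, the match began at position -13 in IARS1, 3 in TARS1, -33 in GARS1 and -4 in MARS1. In the holders not printed it began at -2 in CARS1, 15 in NARS1, -187 in AARS1 and -197 in YARS2. The 7 cytosolic genes with the core had a median difference of -0.10 and the 9 without it -0.04. LARS1, VARS1 and YARS1 (-0.20, -0.65 and -0.20), without a window, are in neither group. As VARS1 is the only called member, neither group could hold a call. A match describes the letters only.

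WARS1 is known as a gene that interferon-gamma raises, and 10 genes linked to that cytokine were read beside it. WARS1 was at 63.0, 68.4 and 76.0 FPKM in NC and at 72.5, 76.1 and 86.6 FPKM in oeALKBH5, with overlapping groups, and its difference of 0.18 did not pass (95% interval -0.07 to 0.43, limma adjusted p = 0.387). Of the 10 genes, 6 were expressed enough to be tested, and IRF1, a transcription factor, rose from 3.36, 0.754 and 1.49 FPKM to 7.07, 7.99 and 6.44 FPKM (1.61, limma adjusted p = 0.0331). GBP4, a guanylate-binding protein, was listed at 0, 0 and 0.0565 FPKM in NC and at 4.05, 4.45 and 1.57 FPKM in oeALKBH5. It reached the minimum level for testing only through the oeALKBH5 libraries, so a difference was built into its being tested, and its call is not counted. When 1 library was left out, IRF1 was called only without NC replicate 1 (limma adjusted p = 0.0172), with 0.0815 and 0.120 without NC replicates 2 and 3 and 0.0838, 0.0961 and 0.0816 without oeALKBH5 replicates 1, 2 and 3. IDO1 was listed at 0 in every library.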

How the data were processed

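Input libraries of C4-2 cells, 3 NC and 3 oeALKBH5, were compared as labelled. The deposited gene values are taken as the authors' FPKM: no unit is written in the table, and the reading rests on the value range and on the submitters' processing notes, which list cutadapt 1.9.3, HISAT2 2.0.4, Cuffdiff, Cufflinks and genome build hg19. Symbols were found for 19434 of 20308 gene IDs. The peak lists of the 6 immunoprecipitated libraries were not used here, since no hg19 annotation was at hand.

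limma 3.58.1 (R 4.3.3) was run with its trend option on log2(FPKM + 1) of the 12757 genes whose mean reached 0.5 FPKM, among them 35 of 35 members. Benjamini-Hochberg adjustment covered all these genes. Differences on this scale understate those of low genes. The pipeline was tested on simulated data. Summaries used Python 3.11.15 and pandas 2.3.3. The alternatives were a pseudocount of 0.1, no filter, a minimum mean of 5 FPKM, quantile normalization, no trend, a replicate block and leaving out each library.

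Members and lists were chosen with earlier results of these data known. Every member was named, with each library's value where it was called or its groups did not overlap; partner genes were named where called, or else by smallest p. Promoters were to be printed for called members holding the motif; as VARS1 was not matched, others are shown. FARSA, WARS1, SARS2, VARS2, PARS2, ATF4, ASNS and further genes given beyond the rule were chosen after their values were seen.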

Additional observations from a re-analysis of the deposited data

How the results depend on the processing

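The number of genes called, 695, went to 421 with no filter on low values, 270 with no trend and 344 with the replicate block, and ranged from 232 to 436 when 1 library was left out. Members called lower, 1 as reported, went to 0 with a pseudocount of 0.1, with no filter, with quantile normalization, with no trend and with the block, to 2 (VARS1 and FARSB) where the minimum mean was 5 FPKM, and ranged from 0 to 1 when 1 library was left out. VARS1 had limma adjusted p of 0.0515, 0.115, 0.0569, 0.130 and 0.117 in those 5 fits and 0.0434 with the higher minimum. No fit called a member higher. Among partner genes, AIMP2 lost its call in the same 5 fits (0.113 with the block), EEF1A2 and SSB with no trend (0.102 and 0.0946), PSPH with no filter and no trend (0.0590 and 0.0593), and STC2 and IRF1 with no filter (0.0714 and 0.0882), no trend (0.0861 and 0.0624) and the block (0.0661 and 0.0680). Leaving out 1 library, the cytosolic median ranged from -0.18 (without oeALKBH5 replicate 3; -0.17 without NC replicate 3) to -0.067 and the mitochondrial median from -0.23 to 0.035. Of 420 comparisons of a member with an alternative, 384 kept direction and side of the threshold and 24 turned sign, in 14 members; 21 members turned in none. With quantile normalization EPRS1 went to 0.013. Leaving out 1 library, the members that turned ranged from -0.014 to 0.19 (CARS1), -0.093 to 0.036 (EPRS1), -0.18 to 0.063 (HARS1), -0.12 to 0.048 (QARS1), -0.067 to 0.081 (RARS1), -0.074 to 0.15 (SARS1), -0.024 to 0.10 (TARS1), -0.37 to 0.030 (AARS2), -0.0041 to 0.13 (IARS2), -0.013 to 0.31 (PARS2), -0.28 to 0.55 (SARS2), -0.048 to 0.23 (TARS2), -0.30 to 0.58 (VARS2) and -0.38 to 0.098 (YARS2). Fits without a library rest on fewer samples; beyond that, the cause was not tested. Same-numbered libraries did not deviate together across genes (r = -0.017, -0.021 and 0.032). Whether they were cultured or prepared together is not in the labels, and these correlations cannot decide it. The block is therefore given as an alternative fit, and only here. With depth unknown, no counting error was computed.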
